A study of Mus musculus with 23 samples.

Results

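Transcript levels of 9 non-classical MHC class I genes were followed through 23 MC38 tumors. The genes were H2-Q4, H2-Q6, H2-Q7, H2-T22, H2-T23, H2-T24, H2-M3, Cd1d1 and Mr1, listed by symbol and matched through a GENCODE annotation to the gene identifiers of a table of 26869 genes. All 9 were found, and all 9 reached the minimum of 5 counts summed over tumors, as did 26342 genes in the table. MC38 is a colon carcinoma cell line from C57BL/6 (B6) mice. The hosts were female F1 mice, aged 8 to 12 weeks at injection, with a mother of a Collaborative Cross (CC) line and a C57BL/6J father. CC lines are recombinant inbred mice that mix the genomes of several founder strains. Each host received MC38 cells under the skin, and at a tumor size of 75 to 110 mm3 it was given 200 µg of either an isotype control antibody (clone 2A3) or an antibody against PD-1 (aPD1, clone 29F.1A12), injected into the peritoneum. Tumors were collected 48 h later. The study's text, not the sample labels, called the lines CC001F1, CC002F1 and CC075F1 responders (R) and CC036F1, CC079F1 and CC080F1 non-responders (NR). Each line had 2 tumors per antibody, except CC080F1 with aPD1, which had 1, so there were 6 R isotype, 6 R aPD1, 6 NR isotype and 5 NR aPD1 tumors.

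Every host shared 1 B6 copy of each gene, the tumor cells were B6 throughout, and the CC parent supplied the other host copy. A count from a whole tumor sums cancer cells and host cells, so fewer cells of a type and less RNA per cell cannot be told apart. The founder haplotype that each line carries at these genes was not used here. The depth of the libraries ran from 14493982 to 71868238 expected counts (median 42327570), with 6 shallow libraries (14493982 to 18354547, 2 R and 4 NR) and 17 deep libraries (37242336 to 71868238, 10 R and 7 NR). Depth was therefore partly mixed with class, and calls that were lost in the deep libraries alone are given beside the result. The MC38 transcript Shisal2b was present in every tumor, at 460.1 normalized counts or more, while the epithelial marker Epcam was low, at 2.5 to 66.9.

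Classical class I molecules show peptides from inside the cell to CD8 T cells and differ widely between individuals. Their non-classical relatives vary less and show a narrower set of ligands to particular receptors. H2-T23 encodes the heavy chain of Qa-1, which displays leader peptides of classical class I molecules to the CD94/NKG2 receptors of natural killer cells and CD8 T cells. H2-Q6 and H2-Q7 belong to the Qa-2 group, and H2-Q4 is a neighboring Q-region gene that encodes Qb-1. H2-T22 encodes a molecule that binds no peptide and is recognized by some gamma delta T cells, and H2-M3 presents peptides that start with formylmethionine, a mark of bacterial and mitochondrial proteins. Cd1d1 presents lipids to natural killer T cells, and Mr1 presents metabolites of riboflavin synthesis to mucosal-associated invariant T cells. H2-T24 lies in the same T region and is little characterized. Class I genes in the MHC are switched on by interferon, through IRF proteins that bind near their start sites, and by NLRC5, which acts through the X element next to it.

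The Q-region genes follow each other on chromosome 17 of GRCm38, with H2-Q4 at chr17:35379617-35385290 (+), H2-Q6 at chr17:35424850-35430055 (+) and H2-Q7 at chr17:35439155-35443773 (+). Further along lie the T-region genes H2-T24 at chr17:36005695-36020560 (−), H2-T23 at chr17:36029773-36032855 (−) and H2-T22 at chr17:36037128-36042747 (−), and then H2-M3 at chr17:37270220-37274484 (+). Outside the MHC, Mr1 lies at chr1:155127277-155146814 (−) and Cd1d1 at chr3:86995834-86999441 (−). All 9 are annotated as protein-coding, and the counts cover their exons.

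The promoter windows are shown because they hold these elements in most of the genes that were followed. RefSeq promoters of GRCm38.p6, from 250 bases before to 50 bases after the start site, were matched for 7 of the 9 genes, and none was matched for H2-T24 and Cd1d1. They were searched on both strands for AANNGAAA, the core of an IRF element, and for TGATGAC, the X2 letters of the class I X box. The windows are printed 5′ to 3′ on the strand of the gene, with both motifs in capitals, and IRF matches appear as the reverse complement. They lie at chr17:35379456-35379524 (+, H2-Q4), chr17:35424690-35424758 (+, H2-Q6), chr17:35439034-35439102 (+, H2-Q7), chr17:36042871-36042941 (−, H2-T22), chr17:37270125-37270199 (+, H2-M3), chr17:36032810-36032833 and chr17:36032767-36032790 (−, H2-T23) and chr1:155146893-155146916 (−, Mr1).
H2-Q4: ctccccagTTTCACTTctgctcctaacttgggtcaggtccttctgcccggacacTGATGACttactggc
H2-Q6: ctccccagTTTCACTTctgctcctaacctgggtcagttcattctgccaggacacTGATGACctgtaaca
H2-Q7: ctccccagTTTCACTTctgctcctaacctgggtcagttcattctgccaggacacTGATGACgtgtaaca
H2-T22: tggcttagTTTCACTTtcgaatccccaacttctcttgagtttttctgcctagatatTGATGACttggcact
H2-M3: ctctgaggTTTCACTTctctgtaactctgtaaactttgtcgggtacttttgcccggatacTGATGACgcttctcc
H2-T23 distal: cctactgcTTTCTCTTtcataaag
H2-T23 proximal: aattctcaTTTCTGTTggacgcct
Mr1: tttattgcTTTCATTTttgtaagt

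The same IRF letters, TTTCACTT on the gene strand, stood in 5 of the 7 promoters, those of H2-Q4, H2-Q6, H2-Q7, H2-T22 and H2-M3. Each of these 5 also held TGATGAC downstream of it. From the start of the IRF match to the start of the X2 letters there were 46 bases in H2-Q4, H2-Q6 and H2-Q7, 48 in H2-T22 and 52 in H2-M3. The complement AAGTGAAA occurred in 1.6% of 32851 RefSeq promoters of the same length, AANNGAAA in 23.9%, TGATGAC in 3.23%, and AANNGAAA together with TGATGAC in 0.868%. H2-T23 differed in its letters, with 2 IRF matches, TTTCTCTT and TTTCTGTT, at 124 and 81 bases before the RefSeq start, and no TGATGAC in the window searched. That stretch lies within the longer span that GENCODE gives the gene. Mr1 had 1 IRF match, TTTCATTT, and no TGATGAC. A match is a description of the letters, and whether any factor bound there was not measured.

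The 9 genes spanned a wide range of levels. On a scale per kilobase of merged exon, which allows genes to be compared, H2-Q4 stood highest with a mean of 7633 normalized counts per kb over the 23 tumors, followed by H2-Q6 (6288), H2-Q7 (5769), H2-T22 (2519), H2-M3 (1195), H2-T23 (867) and H2-T24 (234). Mr1 (43.4) and Cd1d1 (31.7), which lie outside the MHC on chromosomes 1 and 3, were the lowest. The classical genes H2-D1 and H2-K1 had 23073 and 21053 on the same scale. The genes also differed in how much they varied from tumor to tumor. Between the lowest and the highest tumor, normalized counts of H2-T23 differed 6.76-fold and those of H2-T24 5.8-fold, against 1.63-fold for H2-M3, 1.92-fold for H2-T22 and 1.93-fold for H2-Q4. Precision was lowest for Cd1d1, whose lowest count in any tumor was 23 before normalization, and for Mr1 (73) and H2-T24 (108).

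**Figure D1:**
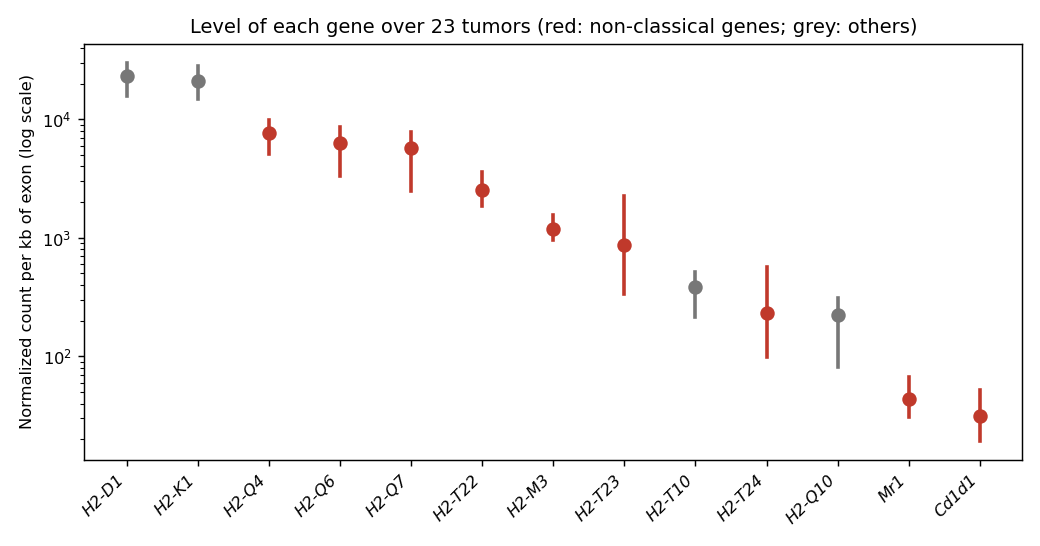
Level of each gene per kilobase of merged exon on a log axis, with the mean over 23 tumors as a point and the lowest to highest tumor as a line, red for the non-classical genes and grey for H2-D1, H2-K1, H2-T10 and H2-Q10. The 3 H2-Q genes sat below H2-D1 and H2-K1 and above the other non-classical genes, and H2-T23 and H2-T24 had the longest lines of the red genes.

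Part of the sequence of these genes is shared with relatives, which limits what a count can be assigned to. Stretches of 100 bases, the length of 1 read end, were taken from the annotated protein-coding transcripts of each gene. Of those of H2-Q7, 17.2% also occurred in another gene, with 9.34% in H2-Q6 and 7.87% in H2-Q5. For H2-Q6 the share was 13%, with 8.36% in H2-Q7. H2-Q4 shared 13.9%, of which most (11.1%) lay in Gm11131, at 294 mean normalized counts against 19815 for H2-Q4. Stretches were matched on both strands, and how far reads of H2-Q4 and Gm11131 could be told apart was not tested. H2-T22 shared 12.4%, mainly with H2-T10 (8.57%), and H2-T23 7.28%, with Gm7030 (4.44%), Gm11127 (3.42%) and H2-D1 (3.35%). Cd1d1 shared 13.8%, all with Cd1d2, whose mean was only 2.14 normalized counts. No stretch of H2-T24, H2-M3 or Mr1 was shared. These shares describe exact matches in the reference sequence. Stretches that differ by a base or more, or that CC founder haplotypes share or lack, were therefore not counted.

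The first comparison asked how tumors of the R lines differed from those of the NR lines. In a fit of all tumors that allowed for antibody, 4 of the 9 genes were higher in R tumors and none was lower at a DESeq2 adjusted p under 0.05 (0 of 9). These were H2-T23, H2-T24, H2-Q7 and H2-T22. Of all genes with an adjusted p, 14.4% were called and 7.66% were called higher. The median log2 difference of the 9 genes was 0.25, with 7 of 9 above 0, against -0.00042 over all genes tested. Markers of T cells and macrophages were also higher in R tumors (6 of 7 and 3 of 5 called), and their part in these differences was not tested. Lines are nested in classes, and these fits counted tumors of a line as independent. In isotype tumors 0 of the 9 passed, where 5.53% of all genes did, and edgeR called 0 as well (unadjusted p under 0.05 for H2-T23 alone in DESeq2, at 0.00801). In aPD1 tumors the 4 genes called were again H2-T23, H2-T24, H2-Q7 and H2-T22, all higher, against 7.93% of all genes called and 5.94% called higher. All 9 had a difference above 0 there, with a median of 0.38. The comparison over all tumors and that in aPD1 tumors share the aPD1 tumors.

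H2-T23, the Qa-1 gene, had the largest class difference of the 9 genes. Its normalized counts in R isotype tumors were 2699 and 3049.9 in CC001F1, 2121 and 1829.7 in CC002F1 and 2217 and 2366 in CC075F1, and in R aPD1 tumors 2934 and 6559.9 in CC001F1, 4044 and 3434 in CC002F1 and 5484 and 3189 in CC075F1. In NR lines the isotype tumors had 1204 and 1623 in CC036F1, 969.9 and 1314 in CC079F1 and 2645 and 1552 in CC080F1, and the aPD1 tumors 1910.0 and 1222 in CC036F1, 1421 and 1586 in CC079F1 and 2221 in CC080F1. Under aPD1 every R tumor lay above every NR tumor, as was the case for 1 of the 9 genes and for 2.63% of all genes tested, while in isotype tumors the classes overlapped through CC080F1. Under aPD1 R tumors averaged 4274 ± 1444 (SD, n = 6) and NR tumors 1672 ± 397 (SD, n = 5), which gave a log2 difference of 1.35 ± 0.21 (SE, DESeq2 adjusted p 3.05e-08), or 2.55-fold. In isotype tumors they were 2380.4 ± 435 (SD, n = 6) and 1551 ± 586 (SD, n = 6), a log2 difference of 0.62 ± 0.23 with an adjusted p of 0.0907. Over all tumors the difference was 0.97 ± 0.18 (adjusted p 1.67e-05). This call and that in aPD1 tumors passed in each setting tried in which the gene kept its own count, including limma with line as a random effect (adjusted p 0.00193 and 0.0327). The isotype difference passed only without CC080F1 isotype replicate 1, at 0.84 (adjusted p 1.4e-06).

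H2-T24, its neighbor in the T region, was spread differently over the lines. The R isotype tumors had 320.2 and 485 in CC001F1, 534 and 507 in CC002F1 and 581 and 408 in CC075F1 normalized counts, and the R aPD1 tumors 388 and 943 in CC001F1, 744 and 761 in CC002F1 and 1243 and 711 in CC075F1. The NR isotype tumors had 265 and 220.1 in CC036F1, 253 and 214 in CC079F1 and 632 and 696 in CC080F1, and the NR aPD1 tumors 273 and 257 in CC036F1, 335 and 300.2 in CC079F1 and 689 in CC080F1. CC036F1 and CC079F1 were low under both antibodies, below every R tumor except for CC001F1 isotype replicate 1, which fell under the highest CC079F1 tumor, whereas the NR line CC080F1 stood among the R lines, so the classes overlapped. Under aPD1 R tumors averaged 798 ± 282 (SD, n = 6) and NR tumors 371 ± 180.4 (SD, n = 5), with a log2 difference of 1.10 ± 0.34 (DESeq2 adjusted p 0.0222). In isotype tumors the difference was 0.31 ± 0.34 (adjusted p 0.66), and over all tumors it was 0.69 ± 0.25 (adjusted p 0.0453). Both calls depended on single tumors. That over all tumors was lost in 17 of the 23 fits without 1 tumor, with an adjusted p up to 0.0933, and held without CC001F1 isotype replicate 1, CC001F1 aPD1 replicate 1, CC075F1 isotype replicate 2 or any 1 tumor of CC080F1. It was also lost with counts summed per line, at 0.66 (adjusted p 0.469), and with edgeR (adjusted p 0.0696). The call in aPD1 tumors was lost without CC001F1 aPD1 replicate 2 or without any 1 aPD1 tumor of CC036F1 or CC079F1, with an adjusted p up to 0.0926. It was also lost in limma with a random effect of line (adjusted p 0.12), with counts summed per line (0.344) and with edgeR (0.0698). In the deep libraries the difference was 0.73 (adjusted p 0.0955) over all tumors and 1.07 (adjusted p 0.114) in aPD1 tumors, which did not pass.

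H2-Q7 and H2-Q6, the Qa-2 genes, were among the most abundant. H2-Q7 had 23172 and 29309.5 in CC001F1, 22314 and 27556 in CC002F1 and 22132 and 26778 in CC075F1 normalized counts in R isotype tumors and 30412 and 33467 in CC001F1, 32619.9 and 32361 in CC002F1 and 28322 and 27845 in CC075F1 in R aPD1 tumors. In NR isotype tumors it had 21154 and 31299.9 in CC036F1, 15158 and 17892 in CC079F1 and 24289 and 10622 in CC080F1, and in NR aPD1 tumors 30398 and 26112 in CC036F1, 17060.1 and 21326 in CC079F1 and 14287 in CC080F1. The low NR values came from CC079F1 and CC080F1, while CC036F1 reached the R range. The log2 difference was 0.41 ± 0.15 over all tumors (DESeq2 adjusted p 0.0396), 0.33 ± 0.22 in isotype (adjusted p 0.413) and 0.50 ± 0.16 in aPD1 tumors (adjusted p 0.0274). In the deep libraries these were 0.30 (adjusted p 0.197), 0.050 (adjusted p 0.964) and 0.51 (adjusted p 0.0864), so no H2-Q7 class call passed there. The call in aPD1 tumors was also lost in limma with a random effect of line (adjusted p 0.123), with counts summed per line (0.0642) and with edgeR (0.141), and that over all tumors with counts summed per line (0.138) and with edgeR (0.062). Without 1 tumor the call over all tumors was lost in 11 of 23 fits (adjusted p up to 0.0688), and that in aPD1 tumors without CC001F1 aPD1 replicate 2, CC080F1 aPD1 replicate 1 or any 1 aPD1 tumor of CC002F1 or CC079F1 (adjusted p up to 0.101). With the counts of H2-Q6 and H2-Q7 added into 1 feature, the differences no longer passed, at 0.35 over all tumors (adjusted p 0.0765) and 0.45 in aPD1 tumors (adjusted p 0.0564).

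H2-Q6 had 12005 and 14462 in CC001F1, 10801 and 13239 in CC002F1 and 10814 and 15226 in CC075F1 in R isotype tumors and 15413 and 17221 in CC001F1, 18093 and 16022 in CC002F1 and 13959 and 14046 in CC075F1 in R aPD1 tumors. The NR isotype tumors had 11802 and 17703 in CC036F1, 9591 and 11185 in CC079F1 and 12323 and 6896 in CC080F1, and the NR aPD1 tumors 15324 and 17141 in CC036F1, 9018 and 11233 in CC079F1 and 8006 in CC080F1. Like H2-Q7 it was high in CC036F1 and low in CC079F1 and CC080F1, and the classes overlapped under both antibodies. Its class differences did not pass, at 0.25 ± 0.14 over all tumors (DESeq2 adjusted p 0.243) and 0.38 ± 0.17 in aPD1 tumors (adjusted p 0.179).

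H2-Q4, like H2-Q6, was highest in CC036F1 and lowest in CC080F1, with a smaller spread. The R isotype tumors had 18333 and 21722 in CC001F1, 17258 and 19334 in CC002F1 and 16797 and 22429.5 in CC075F1, and the R aPD1 tumors 20013 and 23224 in CC001F1, 24743 and 23519.6 in CC002F1 and 20198 and 20395 in CC075F1. In NR lines the values were 19165 and 25599 in CC036F1, 16753 and 19418 in CC079F1 and 20207 and 13283 in CC080F1 with isotype and 22409.5 and 21352 in CC036F1, 15500.1 and 18730.4 in CC079F1 and 15368 in CC080F1 with aPD1. The highest of all 23 tumors was an NR isotype tumor of CC036F1, and the classes overlapped. The differences were 0.12 ± 0.090 over all tumors (DESeq2 adjusted p 0.41), 0.017 ± 0.12 in isotype and 0.24 ± 0.11 in aPD1 tumors (adjusted p 0.209).

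H2-T22, the gamma delta T cell ligand, was higher in R tumors over all tumors and in aPD1 tumors. It had 8952 and 10021 in CC001F1, 7099 and 8683 in CC002F1 and 7417 and 9530.4 in CC075F1 normalized counts in R isotype tumors and 10295 and 12264 in CC001F1, 10459.5 and 10625 in CC002F1 and 8941 and 8726 in CC075F1 in R aPD1 tumors. The NR isotype tumors had 7660.4 and 9726 in CC036F1, 7174 and 7862 in CC079F1 and 9032 and 6607 in CC080F1, and the NR aPD1 tumors 8744 and 6379 in CC036F1, 6465 and 7815 in CC079F1 and 7302 in CC080F1. Under aPD1 the classes nearly separated, with 8726 to 12264 in R and 6379 to 8744 in NR tumors, an overlap of a single CC036F1 tumor with CC075F1. That difference was 0.48 ± 0.11 (DESeq2 adjusted p 0.000557), from means of 10218 ± 1286 (SD, n = 6) and 7341 ± 986 (SD, n = 5), and it passed in every setting in which H2-T22 kept its own count. In isotype tumors the difference was 0.10 ± 0.11 (adjusted p 0.63), and over all tumors 0.28 ± 0.085 (adjusted p 0.0112), or 0.27 (adjusted p 0.114) in the deep libraries.

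H2-M3 was the steadiest of the 9 genes. Its normalized counts were 1726 and 1762 in CC001F1, 1462 and 1569 in CC002F1 and 1600.0 and 1659 in CC075F1 in R isotype tumors and 1939.8 and 2249 in CC001F1, 1883 and 1916 in CC002F1 and 1812 and 1694 in CC075F1 in R aPD1 tumors. In NR lines they were 1836 and 1836 in CC036F1, 1378 and 1713 in CC079F1 and 1689 and 1483 in CC080F1 with isotype and 2051 and 1638 in CC036F1, 1424 and 1658 in CC079F1 and 1547 in CC080F1 with aPD1. The classes overlapped under both antibodies, and the log2 difference was 0.086 ± 0.068 over all tumors (DESeq2 adjusted p 0.458) and 0.20 ± 0.10 in aPD1 tumors (adjusted p 0.26).

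Both genes outside the MHC were low and passed no class test. Cd1d1 had 97.4 and 88.0 in CC001F1, 68.3 and 63.8 in CC002F1 and 69.9 and 133 in CC075F1 normalized counts in R isotype tumors and 59.7 and 50.7 in CC001F1, 120.5 and 79.6 in CC002F1 and 64.2 and 74.5 in CC075F1 in R aPD1 tumors. In NR lines it had 97.8 and 89.3 in CC036F1, 80.6 and 87.2 in CC079F1 and 114 and 71.7 in CC080F1 with isotype and 64.9 and 49.6 in CC036F1, 65.2 and 51.5 in CC079F1 and 132 in CC080F1 with aPD1. The ranges of all groups overlapped, and the class difference over all tumors was -0.014 ± 0.18, with an interval from -0.37 to 0.35 (DESeq2 adjusted p 0.975). Mr1 had 231 and 236 in CC001F1, 219 and 239 in CC002F1 and 186 and 343 in CC075F1 in R isotype tumors and 224 and 248 in CC001F1, 332 and 313 in CC002F1 and 253 and 187 in CC075F1 in R aPD1 tumors. In NR lines it had 298 and 218 in CC036F1, 273 and 402 in CC079F1 and 321 and 241 in CC080F1 with isotype and 245 and 268 in CC036F1, 222 and 222 in CC079F1 and 244 in CC080F1 with aPD1. Again all groups overlapped, with a difference of -0.081 ± 0.12 over all tumors, an interval from -0.32 to 0.15 (95% limits) and an adjusted p of 0.734.

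**Figure D2:**
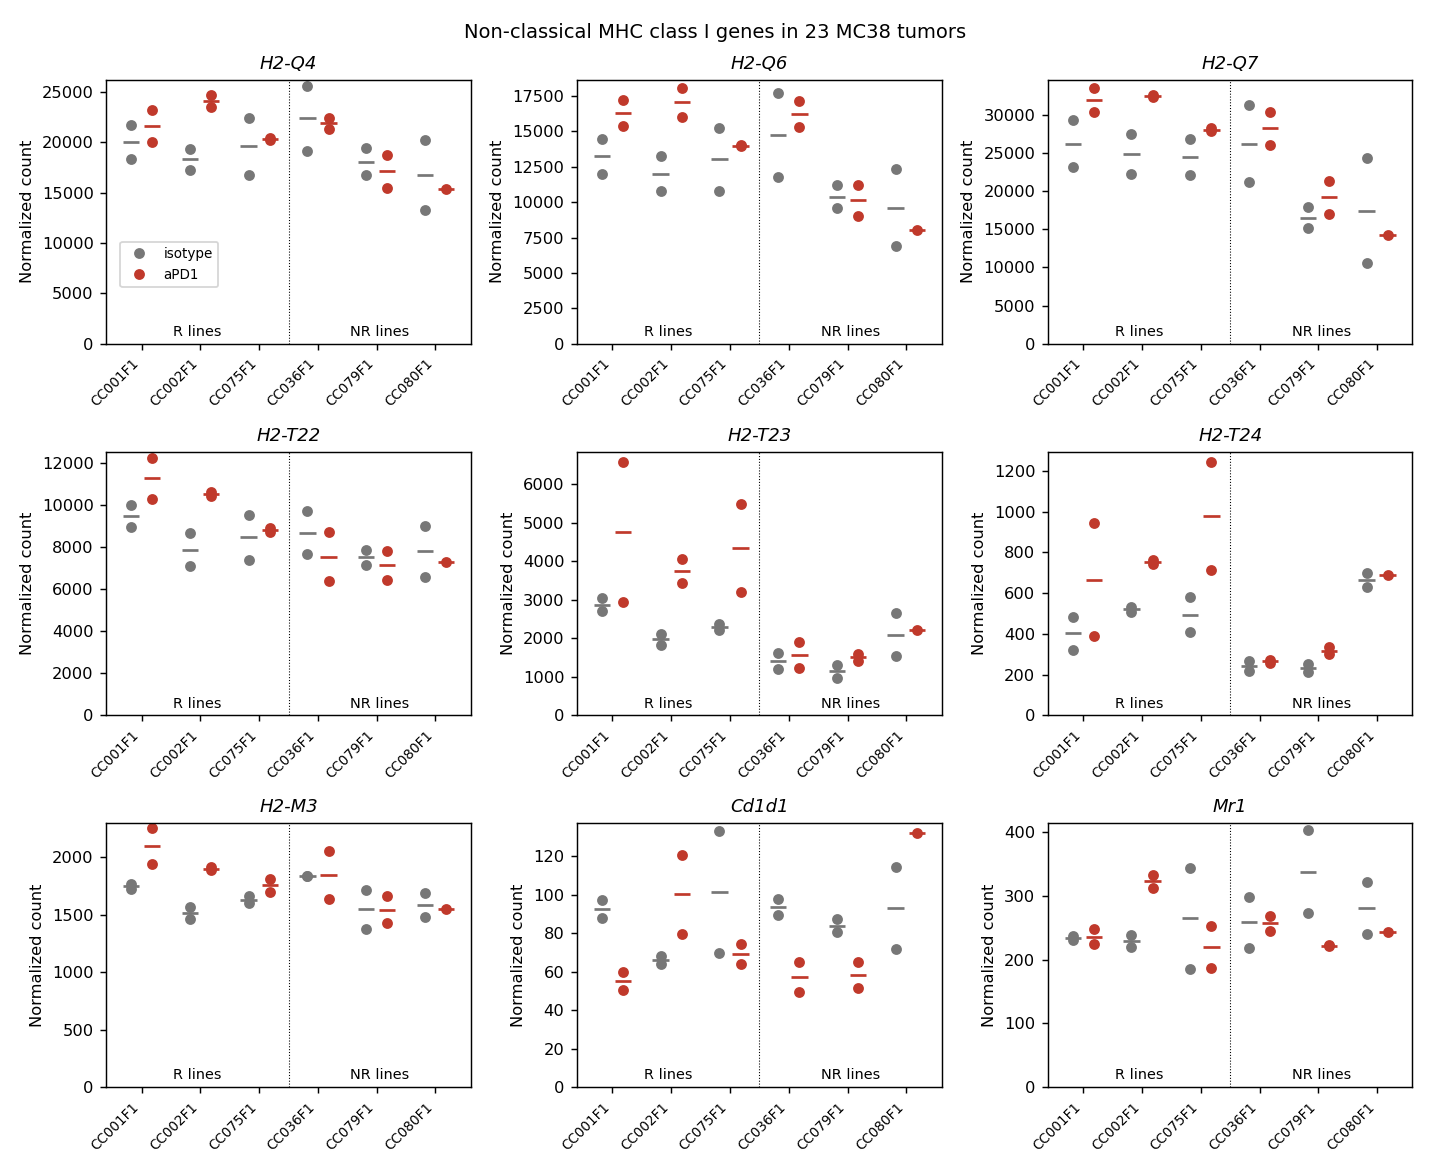
Normalized count of each gene (y axis from 0) in each of 23 tumors by host line, grey for isotype and red for aPD1, with bars at the mean of a line and antibody and a dotted line between R and NR lines. H2-T23 of R aPD1 tumors, from 2934 to 6559.9, lay above that of all NR aPD1 tumors, from 1222 to 2221, and H2-T24 of the NR line CC080F1 lay among the R lines.

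The next comparison asked which of these genes aPD1 altered by 48 h. Among the R lines, allowing for line, 4 of the 9 genes rose at a DESeq2 adjusted p under 0.05 and 0 fell, where 5.26% of all genes with an adjusted p were called and 4.85% rose. These were H2-T23, H2-T24, H2-Q7 and H2-M3, and the median log2 change of the 9 genes was 0.23 against -0.012 over all genes tested. H2-T23 rose by 0.85 ± 0.17 (adjusted p 0.000193), or 1.8-fold, and H2-T24 by 0.74 ± 0.21 (adjusted p 0.0119). The aPD1 mean over the isotype mean of H2-T23 came to 1.65 for CC001F1, 1.89 for CC002F1 and 1.89 for CC075F1, and for H2-T24 it was 1.65, 1.45 and 1.98. In CC001F1 the aPD1 tumors of both genes were far apart and 1 of them lay within the isotype range. H2-Q7 rose by 0.28 ± 0.082 (adjusted p 0.0184) and H2-M3 by 0.23 ± 0.063 (adjusted p 0.0124). For H2-Q7 and H2-M3, 2 of the 9 genes, both aPD1 tumors lay above both isotype tumors in each of the 3 lines, as did 1.99% of all genes tested.

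The other 5 genes did not pass in R lines. Their log2 changes were 0.30 ± 0.10 for H2-Q6 (DESeq2 adjusted p 0.0674), 0.23 ± 0.091 for H2-T22 (0.122), 0.18 ± 0.091 for H2-Q4 (0.32), 0.085 ± 0.17 for Mr1 (0.873) and -0.24 ± 0.27 for Cd1d1 (0.736). Mean levels of H2-Q4, H2-Q6 and H2-T22 were nonetheless higher with aPD1 in 3 of 3 R lines. The calls depended on the tool and on single tumors. With edgeR 0 of the 9 passed, as did 0 of all genes, with 2621 of all genes at an unadjusted p under 0.05, and the edgeR adjusted p was 0.0634 for H2-T23. Without CC001F1 isotype replicate 1, or without CC001F1 aPD1 replicate 2, H2-T23 alone passed in DESeq2, at 0.84 (adjusted p 0.00166) and 0.70 (adjusted p 0.00311). Without CC075F1 isotype replicate 2, 7 of the 9 passed. H2-M3 was lost without CC002F1 isotype replicate 2 (adjusted p 0.0528), H2-Q7 without CC075F1 isotype replicate 1 (0.088) and H2-T24 without CC075F1 aPD1 replicate 1 (0.073). Without CC002F1 isotype replicate 1, CC002F1 aPD1 replicate 1 or CC002F1 aPD1 replicate 2, the number was 2, H2-T23 and H2-T24.

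In NR lines 0 of the 9 genes passed in DESeq2, where 0.0448% of all genes did and 1316 of all genes had an unadjusted p under 0.05, and edgeR also called 0 of the 9. The log2 change was 0.22 ± 0.15 for H2-T23, 0.22 ± 0.12 for H2-T24, 0.052 ± 0.25 for H2-Q7, -0.13 ± 0.11 for H2-T22 and -0.0091 ± 0.090 for H2-M3. The mean of H2-T23 was higher with aPD1 in 3 of 3 NR lines as well, with ratios of 1.11 in CC036F1, 1.32 in CC079F1 and 1.06 in CC080F1, each smaller than in any R line. H2-T24 had ratios of 1.09, 1.36 and 1.04. Means of H2-Q4 and H2-T22 were higher with aPD1 in 0 of 3 NR lines, against 3 of 3 R lines. For H2-M3 the NR ratios lay close to 1, from 0.976 in CC080F1 to 1.005 in CC036F1.

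Whether the change with aPD1 differed between the classes was tested directly. The difference, R minus NR, passed for 0 of the 9 genes, as for 0.0342% of all genes. It was above 0 for 9 of 9, with a median of 0.33 against 0.0077 over all genes tested. The values were 0.63 ± 0.28 for H2-T23 (DESeq2 adjusted p 0.639), 0.53 ± 0.26 for H2-T24 (0.741), 0.37 ± 0.15 for H2-T22 (0.521) and 0.24 ± 0.11 for H2-M3 (0.601). Each of these 4 had an unadjusted p under 0.05, from 0.0116 to 0.046, and edgeR called 0 of the 9 after adjustment. Without CC001F1 aPD1 replicate 1 the H2-T23 difference passed, at 0.77 (adjusted p 0.0265).

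**Figure D3:**
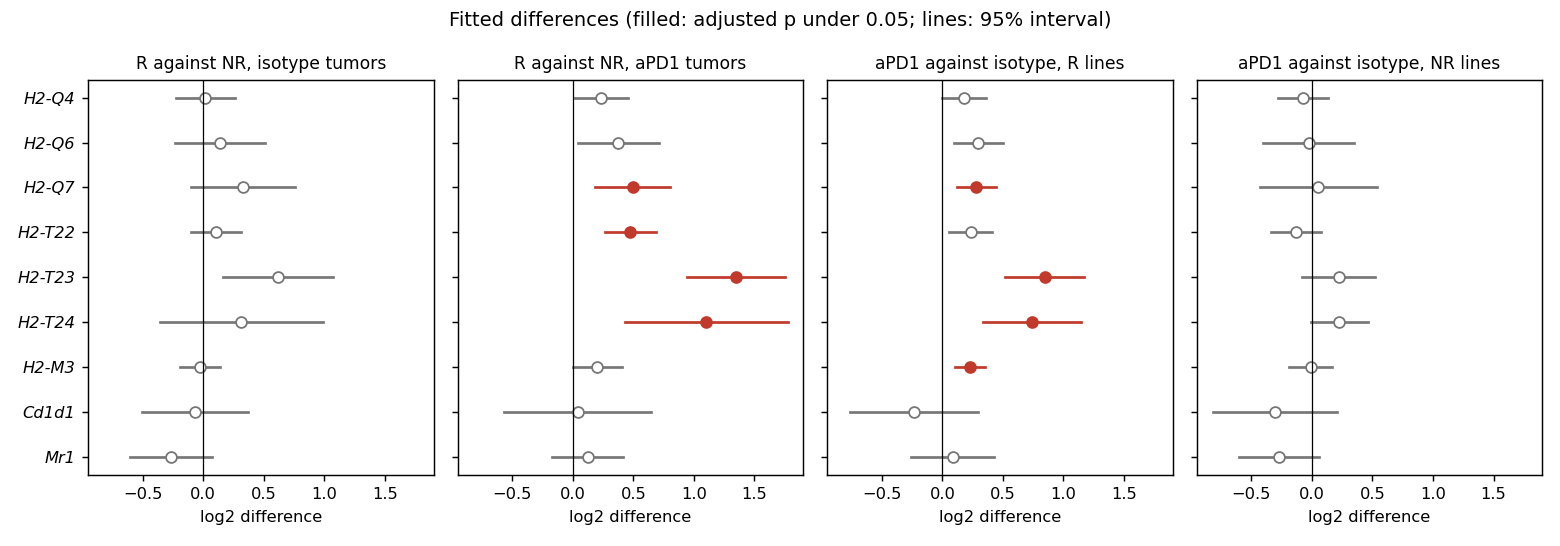
Fitted log2 differences (x axis) of the 9 genes in 4 comparisons, with 95% intervals as lines and filled red points for a DESeq2 adjusted p under 0.05. Filled points were the 4 genes H2-Q7, H2-T22, H2-T23 and H2-T24 for R against NR under aPD1, the 4 genes H2-Q7, H2-T23, H2-T24 and H2-M3 for aPD1 in R lines, and none in isotype tumors or in NR lines.

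**Figure D4:**
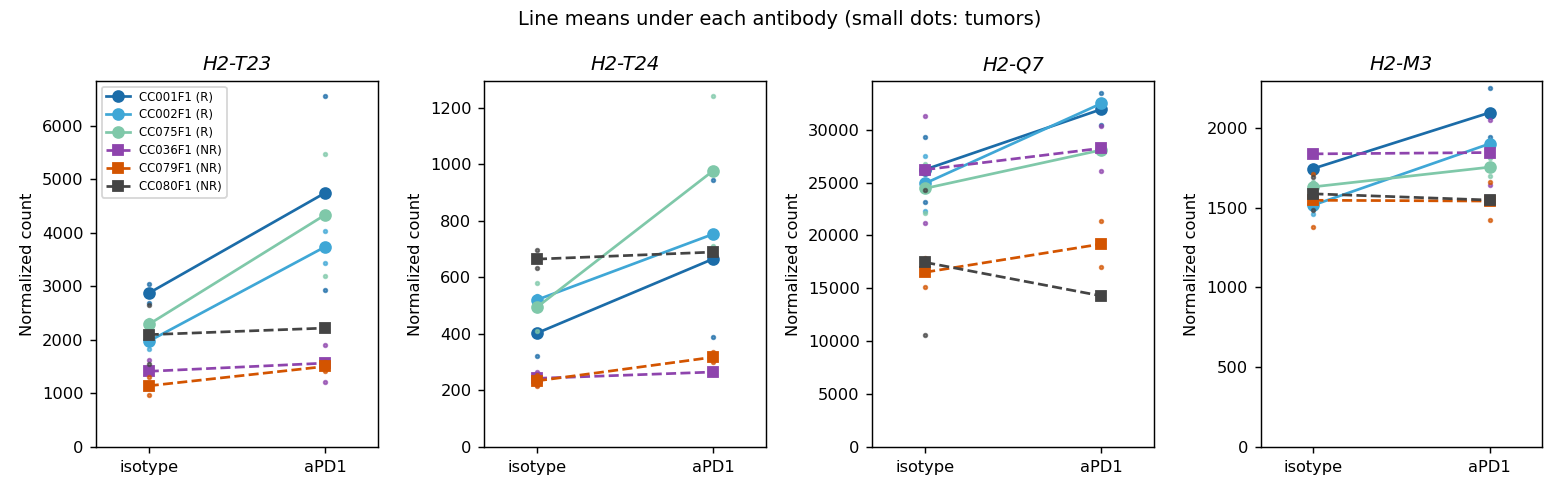
Mean normalized count of H2-T23, H2-T24, H2-Q7 and H2-M3 (y axes from 0) per line under isotype and aPD1, with circles and solid lines for R lines, squares and dashed lines for NR lines, and small dots for tumors. H2-T23 rose most in the R lines, from a mean of 2380.4 to 4274 over the 3 lines, and H2-T24 of CC080F1 was high under both antibodies.

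The host lines were compared next, since lines may differ in the haplotype they carry at these genes. With antibody as a term, 5 of the 9 genes differed between the 6 lines in a DESeq2 likelihood ratio test, where 16% of all genes did. These were H2-T24 (adjusted p 4.37e-12), H2-T23 (4.97e-07), H2-Q6 (0.000692), H2-Q7 (0.00525) and H2-T22 (0.039). Between lines of the same class, 2 of the 9 differed, H2-T24 (adjusted p 1.03e-07) and H2-Q6 (0.00825), against 6.29% of all genes. Without 1 tumor, H2-T24 passed both tests in each of the 23 fits, and H2-Q6, H2-Q7 and H2-T23 passed the test over 6 lines in each, while H2-T22 was lost there in 11 fits (adjusted p up to 0.157). It was also lost with edgeR (adjusted p 0.111) and in the deep libraries (0.291). H2-Q6 was lost in the test within classes without CC075F1 aPD1 replicate 1, CC036F1 isotype replicate 2 or CC036F1 aPD1 replicate 2 (adjusted p up to 0.163), and with edgeR (0.079). In the deep libraries H2-Q7 passed within classes as well (0.0264). Without CC080F1 isotype replicate 1, 4 genes passed within classes, H2-Q4 and H2-Q7 in addition.

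The order of lines differed from gene to gene. H2-T23 averaged 3811 ± 1839 (SD, n = 4) in CC001F1, 3314 ± 1508 in CC075F1 and 2857 ± 1055 in CC002F1, then 2139 ± 551 in CC080F1, which had 3 tumors, 1489.8 ± 340.4 in CC036F1 and 1323 ± 260.4 in CC079F1. The 3 R lines thus came first. H2-T24 was highest in CC075F1 (736 ± 360.1) and CC080F1 (673 ± 35.2), followed by CC002F1 (637 ± 135) and CC001F1 (534 ± 281), and lowest in CC079F1 (276 ± 52.9) and CC036F1 (254 ± 23.3). CC080F1 and the other NR lines thus stood at different ends, with no overlap between the tumors of CC080F1 and those of CC079F1 or CC036F1. H2-Q6 was highest in CC036F1 (15493 ± 2661) and lowest in CC079F1 (10257 ± 1124) and CC080F1 (9075 ± 2867). Between neighbors in these orders the tumors overlapped for every gene, except that H2-Q7 of CC075F1 (26269 ± 2833) did not overlap with that of CC079F1 (17859 ± 2579).

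For the remaining genes the fitted spread between the lines was smaller, from 1.18-fold for Mr1 to 1.51-fold for Cd1d1, against 1.67-fold for H2-Q6. H2-T22 ran from 10383 ± 1381 in CC001F1 down to 7329 ± 656 in CC079F1, with the R lines first. H2-Q4 ran from 22131 ± 2678 in CC036F1 to 16286 ± 3552 in CC080F1, and H2-M3 from 1919 ± 239 in CC001F1 to 1543 ± 167 in CC079F1. For both H2-T22 and H2-M3, every tumor of CC001F1 lay above every tumor of CC079F1. Cd1d1 was highest in CC080F1 (106 ± 31.0) and Mr1 in CC079F1 (279.7 ± 85.2), with the tumors of all neighboring lines overlapping.

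Ratios between related genes, taken within each tumor, do not depend on library size. H2-Q7 over H2-Q6 was 1.97 ± 0.043 (SD) in CC001F1, 1.99 ± 0.13 in CC002F1 and 1.95 ± 0.13 in CC075F1, and 1.77 ± 0.19, 1.74 ± 0.18 and 1.76 ± 0.22 in CC036F1, CC079F1 and CC080F1. H2-Q7 over H2-Q4 ran from 1.39 ± 0.11 in CC001F1 to 0.977 ± 0.21 in CC080F1. H2-T24 over H2-T23 was 0.138 ± 0.017 in CC001F1 and 0.333 ± 0.11 in CC080F1, so these neighboring genes did not keep 1 proportion over the lines. These ratios are descriptions, with no test. A difference in expression, in the genes a haplotype carries, and in how reads of a haplotype were assigned among relatives cannot be told apart here.

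The genes that build and load class I molecules moved in the same comparisons. Of 15 classical class I and peptide loading genes, 9 were higher and 0 lower in R tumors over all tumors, with a median log2 difference of 0.21. The 4 with the lowest adjusted p were Tap1, a subunit of the peptide transporter (0.54 ± 0.11, DESeq2 adjusted p 4.55e-05), H2-K1 (0.32 ± 0.083, 0.00242), H2-D1 (0.29 ± 0.077, 0.00276) and Tapbpl, a peptide editor (0.35 ± 0.10, 0.00376). In isotype tumors 0 of the 15 passed, in aPD1 tumors 9 were higher, and with aPD1 in R lines 7 rose and 0 fell. Over all tumors H2-T23 differed by 0.97, more than each of these 15 genes. Of 19 other class I and class I-like genes, 18 were in the table and 12 had an adjusted p over all tumors. Among these, 2 were higher, H2-T10, a close relative of H2-T22 (0.29 ± 0.10, adjusted p 0.0251), and Ulbp1, an NKG2D ligand (0.16 ± 0.053, 0.0198).

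Of 14 genes of interferon signaling and class I regulation, 3 were higher and 0 lower in R tumors over all tumors, where 7.66% of all genes were called higher. The 3 included Ifng, which encodes interferon gamma (1.89 ± 0.33, DESeq2 adjusted p 1.75e-06), and the IRF factor Irf1 (0.31 ± 0.082, 0.00318). In isotype tumors 1 of the 14 was higher and 1 lower, with 7 of 14 differences above 0. In aPD1 tumors 4 were higher and 0 lower. With aPD1 in R lines 7 of the 14 rose and 0 fell. The regulator Nlrc5, on the loading list, rose there by 0.59 ± 0.11 (adjusted p 0.00013) and was higher in R tumors over all tumors by 0.50 ± 0.16 (adjusted p 0.0144). In NR lines 0 genes of either list passed. For Cd1d1, which itself was not called, 3 of 7 lipid loading genes were higher over all tumors, the saposin precursor Psap (0.44 ± 0.091, 9.18e-05), the cathepsin Ctss (0.71 ± 0.16, 0.000195) and Npc2 (0.30 ± 0.089, 0.00896). Psap and Ctss are also abundant in macrophages. Of the 7 lipid loading genes, 3 were higher and 1 lower in R than in NR aPD1 tumors. With aPD1 in R lines 4 of them rose and 1 fell.

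Receptors of class I or class I-like molecules, and lymphocyte genes, were higher in R tumors as well. Of 12 listed, 11 were in the table, and 9 were higher and 0 lower over all tumors. The lowest adjusted p were those of Klrk1, which encodes NKG2D (1.69 ± 0.23, DESeq2 adjusted p 3.64e-10), Klrc1, the NKG2A chain that binds Qa-1 (1.73 ± 0.26, 1.61e-08), Pirb, an inhibitory class I receptor of myeloid and B cells (0.99 ± 0.17, 2.34e-06), and Cd8a (1.78 ± 0.39, 0.00018). In isotype tumors 3 of the 11 were called higher and in aPD1 tumors 8. With aPD1 in R lines 3 were called higher, Klrk1, Zbtb16 and Pirb, and 11 of 11 had a log2 change above 0. Klrc1 had 206 ± 81.8 normalized counts in R isotype tumors, 354 ± 186 in R aPD1, 82.3 ± 53.6 in NR isotype and 77.5 ± 19.9 in NR aPD1 tumors (SD).

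Markers of some host cells were also higher in R tumors. The pan-leukocyte gene Ptprc had 5923 ± 337 normalized counts (SD) in R isotype, 8986 ± 3059 in R aPD1, 4088 ± 1257 in NR isotype and 4387 ± 1073 in NR aPD1 tumors. The summed level of 7 T cell markers was 752 to 1866 (median 1418) in R isotype, 976 to 3581 (median 1870.0) in R aPD1, 231 to 1425 (median 380.4) in NR isotype and 399 to 1299.7 (median 657) in NR aPD1 tumors, and 6 of the 7 were called higher in R tumors over all tumors. Those with the lowest adjusted p were Trac, the T cell receptor alpha constant gene (1.28 ± 0.26, DESeq2 adjusted p 6.24e-05), Cd8a, Cd8b1 (1.48 ± 0.40, 0.00337) and the CD3 chain Cd3d (1.01 ± 0.27, 0.00395). Of 5 natural killer cell markers 2 were higher, Klre1 (1.37 ± 0.34, 0.00118) and Klrb1c (0.87 ± 0.30, 0.0274), and of 5 macrophage markers 3, Adgre1 (0.43 ± 0.11, 0.00219), Cd68 (0.37 ± 0.10, 0.00464) and Csf1r (0.33 ± 0.12, 0.039). Of 5 conventional dendritic cell markers 1 was higher, Xcr1 (1.44 ± 0.40, 0.00546), and of 5 B cell markers 0. The median log2 difference over all tumors was -0.17 for the dendritic cell list, with 2 of 5 above 0. For the B cell list it was -0.44, with 0 of 5 above 0. With aPD1 in R lines, 0 of 7 T cell and 0 of 5 natural killer cell markers were called. Calls there were 2 of 5 macrophage (Adgre1 and Cd68) and 1 of 5 conventional dendritic cell markers (Xcr1), all higher. The log2 change was nonetheless above 0 for 7 of 7 T cell markers (median 0.62) and 5 of 5 natural killer markers (0.51). It was also above 0 for 5 of 5 macrophage (0.43) and 3 of 5 conventional dendritic cell markers (0.31). The 9 class I genes had a median of 0.23 there. No marker of these lists was at 0 in every tumor of a group. The summed natural killer markers ran 240.0 to 539 (median 360.4), 279 to 1103 (median 522), 208 to 348 (median 289) and 177 to 367 (median 294), in the same order of groups, and the summed macrophage markers 46097 to 100373 (median 88758), 79524 to 138096 (median 86338), 41227 to 91816 (median 73267) and 52078 to 80059 (median 66892). By line, CC080F1 had more T cell and macrophage marker signal than CC036F1, with mean sums of 1022 against 614 and 81079.7 against 56451. Means of H2-T23 (2139 against 1489.8) and H2-T24 (673 against 254) were higher in CC080F1 too, as were those of Cd1d1 and Mr1. The H2-Q7 mean was lower in CC080F1, at 16399 ± 7074 against 27241 ± 4647 (SD), as were those of H2-Q4, H2-Q6, H2-T22 and H2-M3. Other pairs of lines kept the order of markers and H2-T genes only in part. CC079F1 had more macrophage signal than CC036F1 (70535 against 56451) but less T cell signal (417 against 614). Its H2-T23 mean was lower (1323 against 1489.8). H2-T24 averaged 673 in CC080F1 and 534 in CC001F1, with T cell sums of 1022 and 1692. The part of these cells in the class I differences was not tested. Of 5 MC38 and epithelial markers 0 were called, and of 5 fibroblast markers 1 was lower over all tumors, Dcn (-0.26 ± 0.10, 0.0486). Of 5 muscle markers 4 were higher and of 5 B cell markers 4 lower in R than in NR aPD1 tumors, as was 1 of 5 adipocyte markers. Tumors of a group differed widely in these sums. The muscle sum ran from 18.8 to 19465 (median 723) in R aPD1 tumors and from 12.7 to 271 in NR aPD1 tumors. The B cell sum ran from 151 to 1987 (median 329) in NR aPD1 tumors and from 128 to 270 in R aPD1 tumors.

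The genes most like each member over the 23 tumors fell into groups. Likeness was Pearson's r of log2(normalized count + 1), among 12055 genes with a mean of at least 100 normalized counts. H2-T23 was most like Ccdc88b (0.965), Il2rg (0.962) and 1600014C10Rik (0.961), of which Il2rg encodes the shared cytokine receptor chain of lymphocytes. H2-T24 was most like Fgd3 (0.927), Arhgap45 (0.927) and Arhgap25 (0.919). By contrast H2-T22 was most like Psmb9 (0.905), Psmb8 (0.901) and Tap2 (0.825), which encode immunoproteasome subunits and a chain of the peptide transporter and lie in the MHC. The genes most like H2-Q7 were H2-Q6 (0.95), H2-D1 (0.949) and H2-K1 (0.943), and those most like H2-Q6 were H2-Q4 (0.96), H2-Q5 (0.957) and H2-Q7 (0.95). For H2-Q4 they were H2-Q6 (0.96), H2-Q5 (0.923) and H2-Q10 (0.904), all of its own region.

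H2-M3 was most like F830016B08Rik (0.886), Apol10b (0.842) and Gm4951 (0.83). The low genes had weaker likeness, with Adamts4 (0.772), Sesn3 (0.741) and Exo5 (0.721) for Cd1d1 and Cav1 (0.767), Iffo1 (0.765) and Camk1 (0.757) for Mr1. Among the 9 genes themselves, r was 0.96 between H2-Q4 and H2-Q6, 0.95 between H2-Q6 and H2-Q7 and 0.80 between H2-T23 and H2-T24, but only -0.018 between H2-T24 and H2-Q4. All these values share libraries, host lines and antibody, so they describe the tumors and carry no p.

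**Figure D5:**
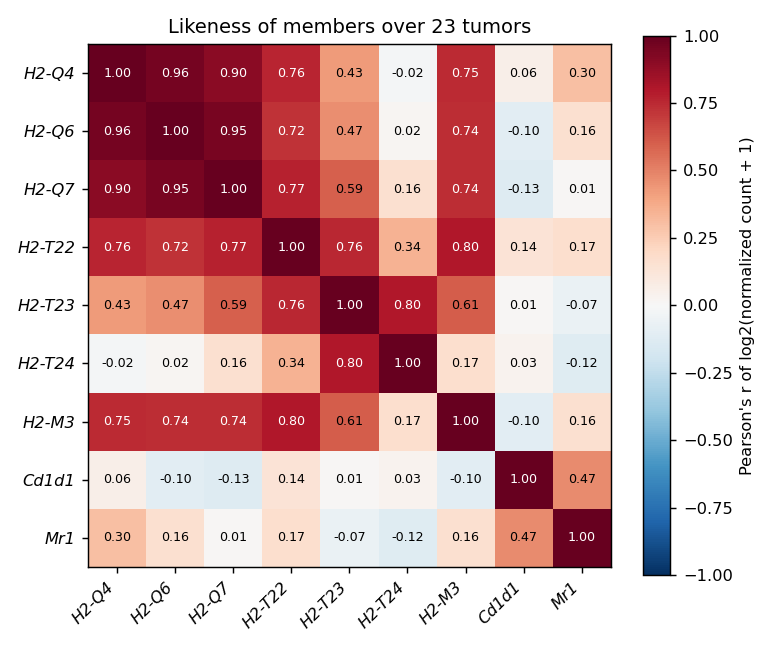
Pearson's r of log2(normalized count + 1) between each pair of the 9 genes over 23 tumors, from blue (-1) to red (1), with the value in each square. The 3 H2-Q genes form a block with r from 0.90 to 0.96, and H2-T24 is closest to H2-T23, at 0.80.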

How the data were processed

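The authors prepared poly(A) RNA libraries, sequenced them as paired reads of 100 bases, and mapped them with Bowtie 1.2.3 (version per the submitters' processing notes) to founder strain transcriptomes built from GENCODE vM23 on GRCm38. They then estimated, with gbrs, expected counts per gene summed over haplotypes. The deposited values are these expected counts, with no scaling for depth. Of the values, 16.95% were not whole, and all were rounded. Shared reads are split among relatives by the estimate, so errors of H2-Q and H2-T genes may be larger than given. Symbols came from GENCODE vM21, which matched 26681 of 26869 identifiers.

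Normalized counts are counts divided by DESeq2 size factors. Tests were DESeq2 1.42.0 Wald or likelihood ratio tests in R 4.3.3 with default options, the tool the study states, on genes with at least 5 summed counts. Calls have a Benjamini-Hochberg adjusted p under 0.05 over all genes. Tumors of a group were separate samples by their labels, and replicate pairs differed by far more than counting noise (in 11 pairs, chi-square was 9.73 to 136 times its degrees of freedom). Alternatives were edgeR 4.0.16, limma 3.58.1 with line as a random effect, TMM scaling, a filter of 10 counts in 2 libraries, no filter, deep libraries (at least 37242336 counts), a replicate block, summed relatives, counts summed per line, and leaving out each tumor. The fits were tested on simulated data. All 9 members are named. From other lists, up to 4 genes with the lowest adjusted p among calls over all tumors are named, with further genes chosen after their values were seen. The values of 1 listed gene are not reported here. Members and lists were chosen with earlier results of these data known.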

Additional observations from a re-analysis of the deposited data

Results flagged for a closer look

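Of 36 groups of 5 or 6 tumors tested for a tumor far from the others, 3 held one, and chance alone would flag about 1 in 20 groups. In NR aPD1 tumors, H2-T24 of CC080F1 aPD1 replicate 1 was 689.2 normalized counts, with the next tumor at 334.7. The isotype tumors of the same line had 632 and 696. In the same group, Cd1d1 of CC080F1 aPD1 replicate 1 was 132.0, with the next at 65.2. That tumor also had the highest summed level of 5 B cell markers of all tumors, at 1987 normalized counts, and the part of this in its Cd1d1 level was not tested. In R isotype tumors, Mr1 of CC075F1 isotype replicate 2 was 343.1, with the next tumor at 239.1.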

How the results depend on the processing

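No gene that was called changed direction under any alternative. Of the 9 genes, the number called for R against NR over all tumors was 4, and 2 with edgeR, 1 in the deep libraries (H2-T23), 2 with counts summed per line and 1 of 5 features when the H2-Q and the H2-T genes were each summed (the H2-T sum). For aPD1 tumors it was 4, and 2 with edgeR, in the deep libraries, with limma and with counts summed per line, and 1 with the sums. In both comparisons H2-T22 and H2-T23 were the genes called wherever the number was 2. For aPD1 in R lines it was 4, and 0 with edgeR and 2 with the sums (H2-M3 and the H2-T sum), and 5 in the deep libraries, with H2-Q6 added. Between the 6 lines it was 5, and 4 with edgeR and in the deep libraries, both without H2-T22, and 2 with the sums. Between lines of the same class it was 2, and 1 with edgeR or the sums and 3 in the deep libraries, with H2-Q7 added. Summing leaves fewer features, deep libraries leave fewer tumors, and for the other settings the cause was not tested. Without 1 tumor the numbers ran from 2 to 4 over all tumors, 0 to 1 in isotype, 2 to 4 in aPD1 tumors, 1 to 7 for aPD1 in R lines, 0 to 1 for the difference of effects, 4 to 7 between lines and 1 to 4 between lines of the same class. The lowest number in aPD1 tumors came without CC001F1 aPD1 replicate 2, CC079F1 aPD1 replicate 1 or CC079F1 aPD1 replicate 2. Over all genes, isotype calls were 829 in DESeq2, 30 in edgeR, 3 in limma and 44 in deep libraries.

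A check over all pairs of groups did not show that replicate numbers pair the tumors. Most of these pairs joined different lines, so pairing within a line was not tested separately. Deviations from group means of same-numbered tumors correlated from -0.404 to 0.368 over 55 pairs of groups, with 41 at or under 0.1. With a replicate block the number called for aPD1 in R lines was 6 in place of 4, with H2-Q6 (0.31) and H2-T22 (0.24) added, and no other number of calls moved.

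Genes that were not called changed sign in some settings. Over all tumors these were Cd1d1 with the replicate block (0.011) and Mr1 in the deep libraries (0.017). In isotype tumors they were H2-Q4 in the deep libraries (-0.15), in limma (-0.015) and summed per line (-0.091), H2-Q6 in the deep libraries (-0.088) and summed per line (-0.0050), and H2-T22 in the deep libraries (-0.051). In aPD1 tumors it was Cd1d1 in the deep libraries (-0.049) and summed per line (-0.16), and in NR lines H2-Q7 in the deep libraries (-0.24). Without 1 tumor, log2 differences that crossed 0 ran from -0.11 to 0.12 for Cd1d1 over all tumors, -0.24 to 0.023 in isotype, -0.16 to 0.37 in aPD1 tumors and -0.10 to 0.38 for the difference of its effects, from -0.068 to 0.12 for H2-Q4 and -0.075 to 0.0082 for H2-M3 in isotype tumors, and with aPD1 in NR lines from -0.13 to 0.084 for H2-Q6, -0.031 to 0.22 for H2-Q7 and -0.062 to 0.034 for H2-M3.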
